A study of Mus musculus with 48 samples.

Results

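The 10 genes described here encode components of the mechanistic target of rapamycin complex 1 (mTORC1) pathway: the kinase Mtor, its partners Rptor and Deptor, the upstream regulators Tsc1, Tsc2, Rheb and Ddit4, and the substrates Rps6kb1, Eif4ebp1 and Eif4ebp2. They were chosen by symbol and matched to Ensembl gene identifiers, and all 10 were among the 12423 genes listed in both assays and among the 11863 genes that passed the filter on low values (a median of at least 0.5 RPKM in both assays). Kidneys came from male C57BL/6JRj mice aged 11 to 12 weeks, kept under 12 h of light and 12 h of darkness with free access to food. Organs were taken at 12 Zeitgeber times (ZT) from ZT00, when the lights went on, to ZT22, at 2 h intervals, and each of the 2 replicate pools per timepoint held organs from 2 animals. Every pool gave 1 RNA-seq library of total RNA and 1 RPF-seq library of ribosome-protected mRNA footprints, hence 24 libraries per assay and 48 in all. No mouse carried a mutation, no treatment was given, and the variable studied was the time of day. The organs were collected over 2 daily cycles, and the labels do not say which cycle a pool came from. A pool of whole organs averages over 2 animals and over all renal cell types, so fewer cells of a type and less RNA per cell cannot be told apart. The p-values measure the spread between pools.

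mTORC1 is a growth-controlling kinase complex that promotes protein synthesis when nutrients, energy and growth factors suffice. Amino acids bring the complex to the lysosome through the Rag GTPases, where the small GTPase Rheb switches it on. The TSC complex, built on Tsc1 and Tsc2, turns Rheb off, and Ddit4 (REDD1), induced by stress and glucocorticoids, acts through TSC to restrain the pathway. Active mTORC1 phosphorylates the S6 kinase encoded by Rps6kb1 and the eIF4E-binding proteins encoded by Eif4ebp1 and Eif4ebp2, which otherwise block cap-dependent initiation. In kidney, the pathway is known for its part in tubular growth and for the cysts and tumours that follow loss of Tsc1 or Tsc2. Transcript and footprint levels, as measured here, say nothing of phosphorylation or kinase activity.

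Abundances were reads per kilobase of coding sequence normalised to library depth (RPKM), a scale on which genes of different length can be set side by side. The RPKM could be traced back to whole coding-sequence reads, summed here over the 11657 tested genes whose length came out the same in both assays. The sums were 9990585 to 36671868 reads per RNA-seq library and 14812584 to 55218099 per RPF-seq library. Among the members, the best covered was Mtor, with a median of 10926.5 reads per RNA-seq library, and the least covered was Eif4ebp1, with 62.5 (31 to 190). The count of Ddit4 in RNA-seq ran from 53 to 388 reads. No stretch of at least 30 bases of any member's coding sequence had a copy of at least 95% identity elsewhere on the assembled chromosomes of GRCm38. Antisense exons covered 2.09% of the coding bases of Rptor (Rptoros) and 8.62% of those of Deptor (Gm9920), and reads of both strands may not have been kept apart there. All 8 kidney markers were listed, among them megalin (Lrp2, 997 to 1496 RPKM) and uromodulin (Umod, 1978 to 3194 RPKM). The lowest of them was Nphs1 (4.89 to 7.68 RPKM). Of 9 markers of other cells or tissue, 6 were listed, and the adrenal genes Cyp11b1 and Star were not. The fat marker Adipoq stayed between 0.128 and 3.98 RPKM, and the blood gene Hba-a1 ranged from 24.6 to 180 RPKM. Also listed were Pecam1 (28.6 to 40.1 RPKM), Alb (4.72 to 24.4 RPKM), Ptprc (3.70 to 7.95 RPKM) and Cd68 (1.02 to 2.72 RPKM).

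The kinase and its activating GTPase were the most abundant members. Mean RNA abundance was 84.0 RPKM ± 10.9 (SD, n = 24) for Mtor and 83.0 RPKM ± 15.0 for Rheb, higher than 87.2% and 87.0% of the genes tested. Eif4ebp2 followed with 72.5 RPKM ± 16.6, and neighbours among these 3 genes were not told apart in RNA-seq (Mtor against Rheb adjusted p = 0.725, Rheb against Eif4ebp2 adjusted p = 0.07, paired sign-flip permutation test over 24 libraries, two-sided, adjusted over 45 pairs). Deptor, an inhibitory subunit of the complex, came next with 33.7 RPKM ± 3.85, and Tsc2 with 30.6 RPKM ± 2.37. The difference between Deptor and Tsc2 was small, 0.13 ± 0.19 (SD) on the log2 scale, but Deptor was higher in 19 of 24 libraries (adjusted p = 0.00329, permutation test). Without replicate 1 this pair was not apart (adjusted p = 0.0723, exact permutation test over 12 libraries). The scaffold Rptor (15.4 RPKM ± 1.51), Rps6kb1 (14.9 RPKM ± 1.85), Ddit4 (14.3 RPKM ± 3.51) and Tsc1 (14.2 RPKM ± 0.864) lay close together. Among these, neighbours in the order did not differ beyond their spread (adjusted p = 0.483 for Rptor against Rps6kb1, 0.185 for Rps6kb1 against Tsc1 and 0.717 for Tsc1 against Ddit4, permutation tests). Eif4ebp1 was the lowest member with 11.3 RPKM ± 2.16. In all, RNA abundance set apart 38 of 45 pairs of members.

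The order changed at the level of footprints, where 43 of 45 pairs were apart. Rheb led with 87.1 RPKM ± 8.04 (SD, n = 24), ahead of Mtor with 62.0 RPKM ± 7.15 in 23 of 24 libraries (adjusted p = 1.1e-05, near the smallest value that 100000 resamples allow, permutation test). Deptor took the third place with 43.1 RPKM ± 3.83. Eif4ebp2 and Ddit4 (24.3 RPKM ± 5.99 and 23.5 RPKM ± 6.27) were not apart (adjusted p = 0.754, permutation test), nor were Eif4ebp1 and Tsc2 (15.9 RPKM ± 3.14 and 15.5 RPKM ± 0.861, adjusted p = 0.893, permutation test). The lowest footprint levels were those of Rptor (10.6 RPKM ± 0.881), Rps6kb1 (6.24 RPKM ± 0.712) and Tsc1 (5.14 RPKM ± 0.373). The length behind the RPKM of Rps6kb1 was 1.23 times that of its longest annotated coding sequence, and 1.07 times for Deptor. Levels of these genes are accordingly less certain than those of Rheb or Ddit4, which have a single coding transcript.

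**Figure D1:**
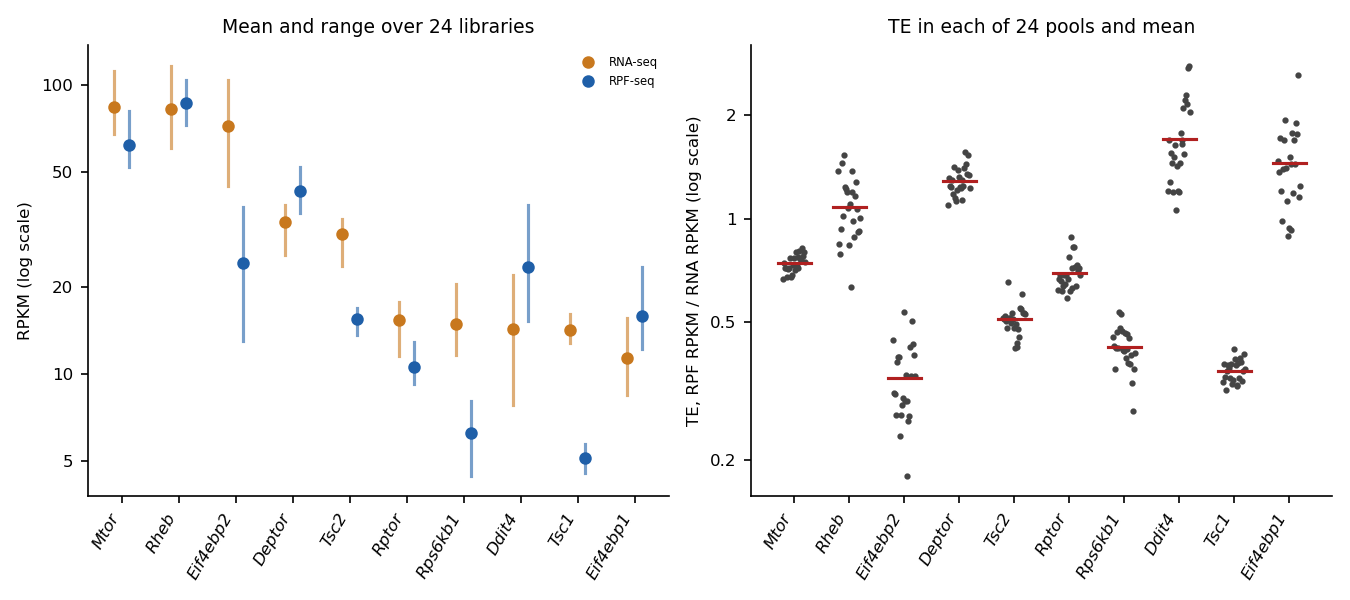
Left, mean (dot) and range (line) of RNA-seq and RPF-seq abundance in RPKM over 24 libraries per assay, log axis. Right, translation efficiency (footprint RPKM over RNA RPKM) in each of 24 pools (dots) with the mean (red line), log axis. Genes are ordered by mean RNA abundance. Eif4ebp2 falls from the third place in RNA-seq to an efficiency of 0.344 on average, whereas Ddit4 lies at 1.70.

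Translation efficiency (TE) was taken as the footprint RPKM divided by the RNA RPKM of the same pool, and the lengths cancel in this ratio. Of the 10 genes, mean TE was highest for Ddit4 (1.70) and lowest for Eif4ebp2 (0.344), without a test against the genes next in order, Eif4ebp1 (1.45) and Tsc1 (0.362). TE of Ddit4 ranged from 1.06 to 2.77 over 24 pools with a median of 1.59, and that of Eif4ebp2 from 0.180 to 0.535 with a median of 0.331. The ranges of Ddit4 and Eif4ebp2 did not overlap. Set against the median gene of the same pool, Ddit4 was 1.73-fold higher (log2 0.79 ± 0.05, SE, adjusted p = 6.98e-14, limma) and above it in 24 of 24 pools. The repressor of initiation Eif4ebp2 was at 0.353 of the median gene (log2 -1.50 ± 0.07, adjusted p = 1.93e-16, limma), and both TSC genes were low as well, Tsc1 at 0.386 (log2 -1.37 ± 0.03, adjusted p = 1.12e-24, limma) and Tsc2 at 0.538 (log2 -0.89 ± 0.03, adjusted p = 1.48e-20, limma). Rps6kb1 was at 0.446 (log2 -1.16 ± 0.03, adjusted p = 3.52e-21, limma). All 4 lay below the median gene in every pool.

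Hence 1 of 10 members was called higher and 4 lower (FDR under 0.05 and at least 1.5-fold), beside 20.6% and 26.0% of all genes. The other 5 differed from the median gene by less than 1.5-fold. Mtor (0.782 of the median gene) and Rptor (0.730) were below it and Deptor (1.35) was above it in all 24 pools, whereas Rheb (1.12) was above it in 16 of 24. Eif4ebp1 stood at 1.47-fold, just under the 1.5-fold cutoff, and was above the median gene in 21 pools. The related Eif4ebp1 and Eif4ebp2 therefore lay on opposite sides of the median gene. Eif4ebp1 was called higher without replicate 1 (log2 0.65) and with no minimum on RPKM (log2 0.59).

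Over the day, changes in the pathway were moderate. Rhythms were tested by fitting a cosine of 24 h period to log2(RPKM + 0.1) with limma, and a gene was called at an FDR under 0.05 with a fitted peak-to-trough fold of at least 1.5. For TE, the FDR alone was used. In RNA-seq, 1 of 10 members was called, Eif4ebp2, beside 10.2% of all genes. In RPF-seq, 2 were called, Eif4ebp2 and Ddit4, beside 7.58%. In TE, 2 were called, Ddit4 and Rps6kb1, beside 17.1%, and of these only Ddit4 reached 1.5-fold, beside 3.74%. The median fold of the members was 1.24 for RNA, 1.13 for footprints and 1.16 for TE, against 1.20, 1.18 and 1.19 over all genes tested. The shares of members called rest on 1 or 2 genes each.

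**Figure D2:**
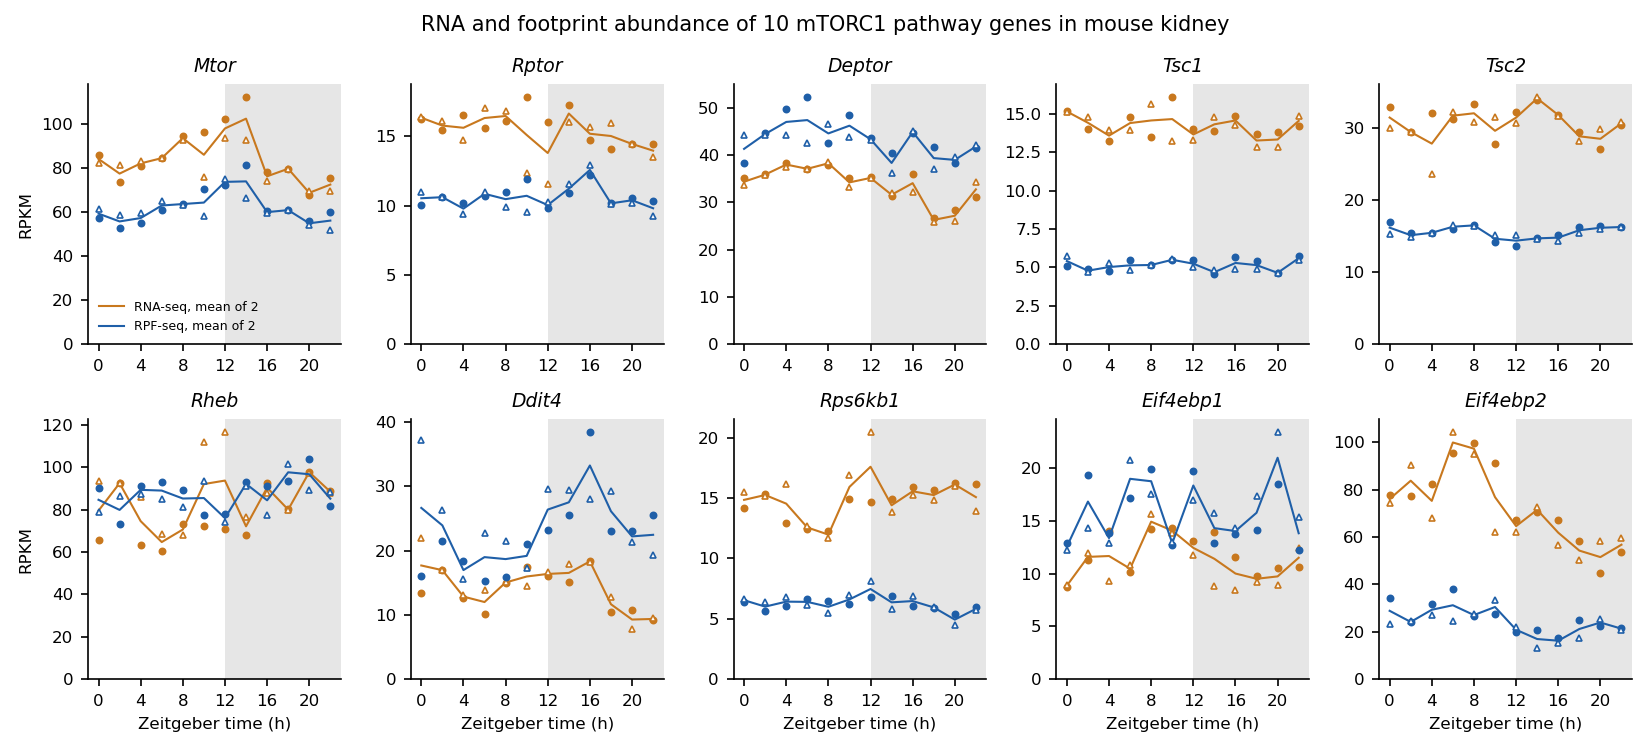
RPKM (y axis) of the 10 members against Zeitgeber time in h (x axis; grey, lights off). Filled circles are replicate 1, open triangles replicate 2, lines the mean of the 2 pools; RNA-seq in orange, RPF-seq in blue. Eif4ebp2 is high between ZT06 and ZT08 in RNA-seq, at 95.1 to 104 RPKM, and Ddit4 RNA is lowest between ZT20 and ZT22, at 7.82 to 10.7 RPKM.

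Eif4ebp2 had the largest fitted fold of RNA and of footprints among the 10 genes. Its RNA was highest in the middle of the light phase, with 95.3 and 104 RPKM at ZT06 and 99.5 and 95.1 RPKM at ZT08 in the pools of replicates 1 and 2. It was lowest late in the dark phase, with 58.4 and 50.1 RPKM at ZT18 and 44.7 and 58.3 RPKM at ZT20. The 2 pools of ZT06 and of ZT08 lay above the 20 others, the nearest of which were a ZT10 pool (91.4 RPKM) and a ZT02 pool (90.3 RPKM). The fitted fold was 1.69 (log2 0.75 ± 0.11, SE, n = 24) with a peak at ZT 6.42 ± 0.53 h (adjusted p = 1.54e-05, limma).

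Footprints of Eif4ebp2 were also higher by day than by night. They reached 37.9 and 24.4 RPKM at ZT06 and 27.5 and 33.3 RPKM at ZT10, and dropped to 20.8 and 13.0 RPKM at ZT14 and 17.3 and 15.1 RPKM at ZT16. The 6 pools from ZT14 to ZT18 lay between 13.0 and 24.8 RPKM (median 17.4), and 4 of them lay below all 18 others (19.8 to 37.9 RPKM, median 24.8). The fit gave a 1.63-fold change (log2 0.71 ± 0.14, SE, n = 24) with a peak at ZT 4.51 ± 0.78 h (adjusted p = 0.00215, limma). The pools of a timepoint differed more here relative to the level, with an SD of 9.56 RPKM at ZT06 (n = 2). No 24-h change of TE was called (1.29-fold, adjusted p = 0.353, limma), so the RNA and footprint profiles were not shown to differ. The RNA call was made under each of the 40 alternatives run, whereas the footprint call was lost without replicate 1 (adjusted p = 0.126, 12 libraries) and with the timepoints as 12 separate levels (adjusted p = 0.0504, limma).

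With the 24-h cosine, Ddit4 was called in its footprints and in its TE. Ddit4 RNA stood at 18.4 and 18.2 RPKM at ZT16 and at 10.5 and 12.8 RPKM at ZT18, and remained low at ZT20 (10.7 and 7.82 RPKM) and ZT22 (9.23 and 9.50 RPKM). Over the other timepoints it ranged from 10.1 to 22.03 RPKM with a median of 15.6 RPKM. The drop late in the night was followed by 13.4 and 22.03 RPKM at ZT00, where the 2 pools stood far apart. This profile was not called with the 24-h cosine (1.35-fold, log2 0.44 ± 0.18, SE, n = 24, adjusted p = 0.128, limma). It was called with a 12-h harmonic added (1.93-fold, adjusted p = 0.00326, limma, beside 1.77-fold and adjusted p = 0.0242 for footprints), with the timepoints as separate levels (1.99-fold, adjusted p = 0.00486, limma) and without the replicate 2 pool of ZT00 (1.501-fold, adjusted p = 0.0156, limma).

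Ddit4 footprints were highest at ZT16, with 38.5 and 28.0 RPKM, and lowest from ZT04 to ZT10, with values of 15.3 to 22.7 RPKM. A single pool of ZT00, that of replicate 2, also reached 37.3 RPKM, against 16.01 RPKM in replicate 1. At ZT18 they were at 23.04 and 29.2 RPKM, lower than at ZT16 in replicate 1 and near the ZT16 value in replicate 2. The fit gave a 1.51-fold change (log2 0.60 ± 0.17, SE, n = 24) with a peak at ZT 17.1 ± 1.06 h (adjusted p = 0.0231, limma). The fold was at the edge of the 1.5-fold cutoff. The call was lost without replicate 1 (1.34-fold, adjusted p = 0.541, limma), with a pseudocount of 1 (1.49-fold), with separate levels (adjusted p = 0.284, limma), and when any 1 of 7 single pools was left out, where the fold lay between 1.43 and the 1.5-fold cutoff. These were ZT00 replicate 1, ZT04 replicate 2, ZT06 replicate 1, ZT08 replicate 1, ZT10 replicate 2, ZT14 replicate 2 and ZT16 replicate 1. It was also lost when the replicate 2 pools of ZT10 and ZT12 were left out together (1.49-fold, adjusted p = 0.0345, limma), an alternative chosen after seeing the data.

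The TE of Ddit4 was highest at the end of the night. It was 2.201 and 2.28 at ZT18, 2.15 and 2.74 at ZT20, and 2.77 and 2.04 at ZT22 in replicates 1 and 2. Over the other 18 pools it ranged from 1.06 to 2.09 with a median of 1.48, and 5 of the 6 pools from ZT18 to ZT22 lay above all of these. The exception was replicate 2 of ZT22, which lay just below replicate 1 of ZT16. The fitted change was 1.76-fold (log2 0.82 ± 0.14, SE, n = 24) with a peak at ZT 19.2 ± 0.66 h (adjusted p = 0.00213, limma). The RNA value is the denominator of TE, and the high TE from ZT18 to ZT22 coincided with the lowest RNA values. The RNA-seq libraries of these timepoints held 0.629 to 0.86 of the reads of the median library, except replicate 2 of ZT22 (1.96). Whether depth plays a part in the TE was not tested. The call was kept in each fit that left out a single pool, but lost with the 12 pools of replicate 2 alone (1.65-fold, adjusted p = 0.193, limma), with those of replicate 1 alone (1.89-fold, adjusted p = 0.114, limma) and with separate levels (adjusted p = 0.0694, limma). With 12 pools, the same test called 0 and 2 of all genes.

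**Figure D3:**
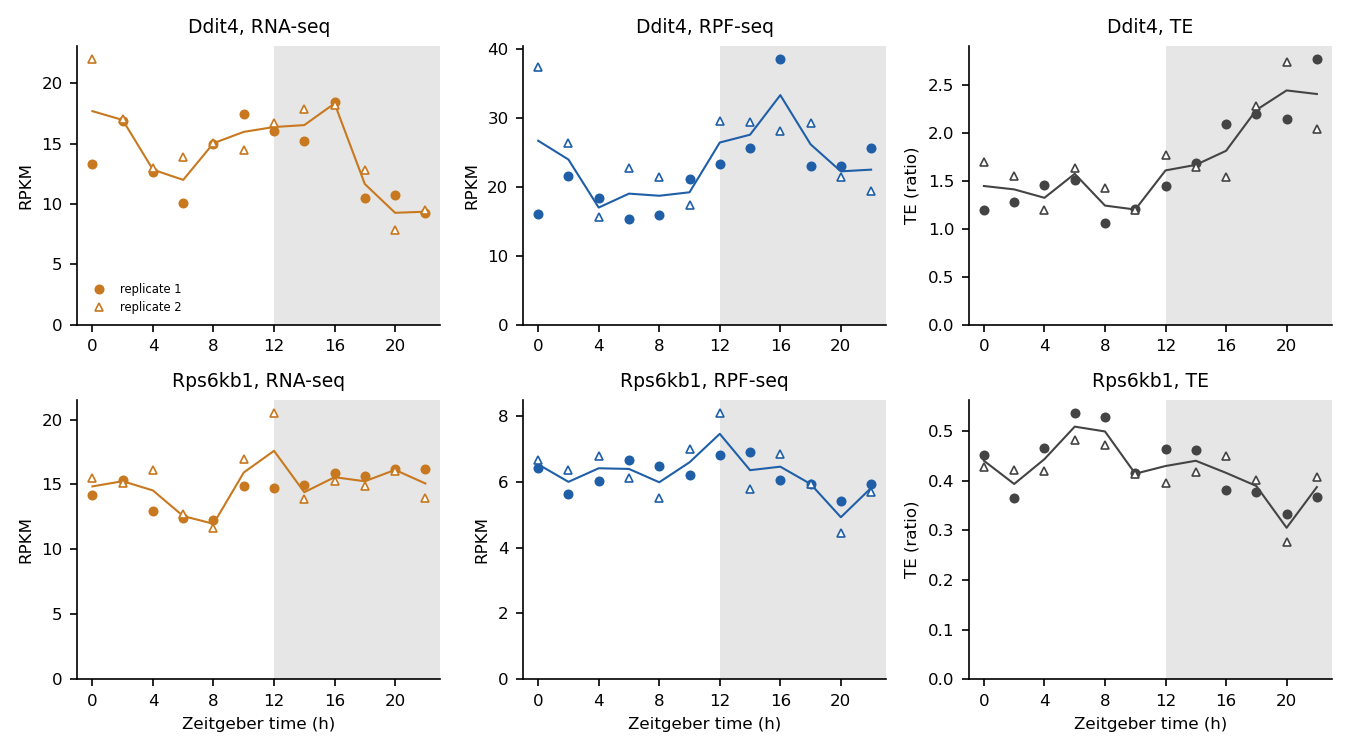
RNA-seq and RPF-seq abundance in RPKM and TE (ratio) of Ddit4 (top) and Rps6kb1 (bottom) against Zeitgeber time in h (grey, lights off). Filled circles are replicate 1, open triangles replicate 2, lines the mean of the 2 pools. TE of Ddit4 lies between 2.04 and 2.77 from ZT18 to ZT22, and TE of Rps6kb1 between 0.277 and 0.408.

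Rps6kb1, which encodes the S6 kinase, was called in TE only, with a change of smaller size and in the other direction. Its TE was 0.537 and 0.482 at ZT06 and 0.528 and 0.4715 at ZT08, against 0.333 and 0.277 at ZT20. Of the 6 pools from ZT06 to ZT10, 4 lay above all 18 others. The fit gave 1.30-fold (log2 0.38 ± 0.09, SE, n = 24) with a peak at ZT 7.67 ± 0.94 h (adjusted p = 0.0215, limma). RNA (1.16-fold, adjusted p = 0.121, limma) and footprints (1.17-fold, adjusted p = 0.138, limma) were not called. RNA abundance was lowest at ZT06 and ZT08, with 11.7 to 12.7 RPKM in the 4 pools, and footprints were lowest at ZT20, with 5.41 and 4.45 RPKM. The TE call was lost without the replicate 2 pool of ZT20 (adjusted p = 0.0501, limma), which held the lowest value, with the 12-h harmonic (adjusted p = 0.0642, limma), with separate levels (adjusted p = 0.12, limma), without replicate 1 (adjusted p = 0.51, limma) and without replicate 2 (adjusted p = 0.137, limma).

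Mtor and Deptor passed the FDR in both assays but stayed under 1.5-fold. Including such genes, RNA of 4 of 10 members had an FDR under 0.05 (48.6% of all genes), as had footprints of 4 (30.9%). Mtor RNA was highest around lights-off, with 102 and 94.0 RPKM at ZT12 and 113 and 92.7 RPKM at ZT14, and lowest at ZT20 with 68.1 and 69.7 RPKM. The step came between ZT14 and ZT16, where the 2 pools had 78.4 and 74.5 RPKM. Its fitted change was 1.28-fold with a peak at ZT 10.2 ± 0.84 h (adjusted p = 0.00218, limma). Mtor footprints were at 55.9 and 54.2 RPKM at ZT20 and at 72.7 and 75.1 RPKM at ZT12 (1.25-fold, peak at ZT 11.7 ± 0.78 h, adjusted p = 0.00209, limma). TE of Mtor stayed between 0.667 and 0.821 in all pools (adjusted p = 0.154, limma), the narrowest range of the 10 genes relative to its level.

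Deptor RNA was at 38.4 and 37.5 RPKM at ZT04 and 37.9 and 38.6 RPKM at ZT08, and at 26.7 and 25.8 RPKM at ZT18 and 28.3 and 25.95 RPKM at ZT20. The 4 pools of ZT18 and ZT20 lay below every other pool. The fit gave 1.32-fold with a peak at ZT 6.32 ± 0.61 h (adjusted p = 7.33e-05, limma), close in time to that of Eif4ebp2 RNA. Deptor footprints changed less (1.17-fold, peak at ZT 6.42 ± 1.07 h, adjusted p = 0.024, limma), from 38.9 RPKM ± 0.908 (SD, n = 2) at ZT20 to 47.4 RPKM ± 6.94 at ZT06. Eif4ebp1 RNA passed the FDR (1.37-fold, peak at ZT 8.73 ± 1.03 h, adjusted p = 0.012, limma), with 14.2 and 15.6 RPKM at ZT08 and 8.76 and 8.94 RPKM at ZT00. Its footprints did not follow a 24-h cosine (1.06-fold, adjusted p = 0.892, limma) and moved between 12.2 and 23.4 RPKM. With separate levels they were called (1.65-fold, adjusted p = 0.0316, limma), with the highest mean at ZT20.

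Tsc1, Tsc2, Rptor and Rheb did not pass the test in either assay. Tsc1, which holds the TSC complex together, had a fitted fold of 1.04 for RNA and 1.02 for footprints (adjusted p = 0.752 and 0.97, limma), and its 24 RNA values lay between 12.8 and 16.1 RPKM. Tsc2, the subunit that acts on Rheb, had folds of 1.08 and 1.09 (adjusted p = 0.371 and 0.171, limma). TE of Tsc2 was 0.422 to 0.494 in the 4 pools of ZT12 and ZT14 and 0.528 to 0.605 in those of ZT20 and ZT22, without passing the test (1.17-fold, adjusted p = 0.0905, limma). Rptor had folds of 1.08 in both assays (adjusted p = 0.534 and 0.405, limma). Its highest footprint values were both at ZT16, with 12.2 and 12.9 RPKM.

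Rheb RNA ranged from 60.7 to 117 RPKM, and the 2 pools of some timepoints stood far apart. Their SD was 27.8 RPKM at ZT10 and 32.6 RPKM at ZT12, but 0.354 RPKM at ZT18 (n = 2 each). At ZT12 the 2 pools gave 70.6 and 117 RPKM and at ZT10 72.4 and 112 RPKM, whereas the footprints of the same pools were at 78.0 and 74.0 RPKM and at 77.6 and 93.3 RPKM. Neither RNA (1.20-fold, adjusted p = 0.218, limma), footprints (1.08-fold, adjusted p = 0.474, limma) nor TE (1.11-fold, adjusted p = 0.773, limma) was called for Rheb. Rptor deviated the other way in the same libraries, with 12.3 and 11.6 RPKM in the replicate 2 RNA-seq libraries of ZT10 and ZT12 and 17.8 and 15.99 RPKM in those of replicate 1.

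Deviations within libraries were also set against the GC content of the coding sequence. Within each library, the deviation of all genes from their own means was regressed on the GC content of their coding sequences. In RNA-seq the slope ran from -0.21 log2 units per 10 percentage points of GC (ZT12, replicate 2) to 0.26 (ZT08, replicate 1). It was only -0.05 in the ZT10 library of replicate 2. A 24-h cosine with a peak at ZT 8.68 h took up 39.2% of the variance of the slope. In RPF-seq the slope ran from -0.15 to 0.15, and the cosine took up 0.64%. The time of day and the GC slope of the RNA-seq libraries thus cannot be fully told apart. Rheb is among the most AT-rich genes (40.6% GC, percentile 1.77 of the genes tested) and Rps6kb1 is also AT-rich (46.7%), whereas Ddit4 (63.0%), Eif4ebp1 (62.7%) and Eif4ebp2 (57.5%) are GC-rich against a median of 52.9%. Over the 24 RNA-seq libraries, which share their depth and preparation with the slope, log2 abundance correlated with the slope at r = -0.81 for Rheb, -0.79 for Rps6kb1, 0.67 for Eif4ebp2 and 0.19 for Ddit4.

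**Figure D4:**
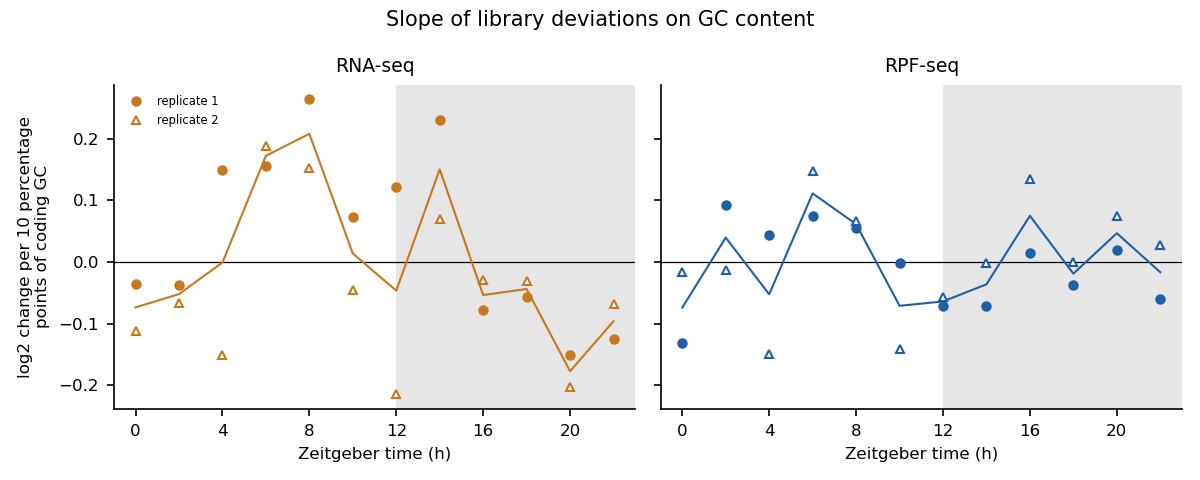
Slope of each library's deviations from the gene means on the GC content of the coding sequence (log2 change per 10 percentage points) against Zeitgeber time in h, for 24 RNA-seq (left) and 24 RPF-seq (right) libraries; filled circles are replicate 1, open triangles replicate 2, lines the mean of the 2 pools. The RNA-seq slopes reach 0.26 at ZT08 and the RPF-seq slopes stay within 0.15 of 0.

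When the dependence on GC was removed from each library, the calls of Eif4ebp2 and Ddit4 were kept and that of Rps6kb1 was not. Eif4ebp2 changed 1.54-fold in RNA-seq (adjusted p = 6.17e-05, limma) and 1.59-fold in RPF-seq (adjusted p = 0.00572, limma). Ddit4 changed 1.57-fold in RPF-seq (adjusted p = 0.0122, limma) and 1.56-fold in TE (adjusted p = 0.0126, limma). TE of Rps6kb1 changed 1.19-fold (adjusted p = 0.0788, limma). The FDR was also missed by Eif4ebp1 RNA (1.15-fold, adjusted p = 0.318, limma) and narrowly by Deptor footprints (1.13-fold, adjusted p = 0.0532, limma), while Mtor kept it in both assays (adjusted p = 0.00771 in RNA-seq and 0.00548 in RPF-seq, limma).

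Promoters were searched for sequence motifs of factors tied to the daily cycle, since Eif4ebp2 and Ddit4 changed over the day. RefSeq promoter sequences of GRCm38.p6, running from 250 bases before to 50 bases after the start, were at hand for 8 of the 10 members, with Deptor and Eif4ebp1 missing from the table. On either strand, the E-box CACGTG bound by CLOCK-BMAL1 was present in 1 of 8 members' promoters (7.15% of 32851 promoters) and its variant CACGTT in 1 (4.69%). The half-site AGAACA of the glucocorticoid response element was present in 1, that of Rps6kb1 (19.0%). The D-box core TTANNTAA (6.00% of all promoters), the RORE core TAGGTCA (2.61%), the FOXO site GTAAACA (3.65%) and the CRE TGACGTCA (1.79%) were found in none. The matches to the 2 E-box forms were in Rheb and Ddit4, printed here on the gene's strand with the match in capitals. The Rheb window is at chr5:24842440-24842469 (minus strand) and its E-box begins at position -96 from the start. The Ddit4 window is at chr10:59951941-59951970 (minus strand), and its match, in the reverse orientation AACGTG, begins at position -188.
Rheb E-box: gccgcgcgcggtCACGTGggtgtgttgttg
Ddit4 E-prime box: gagaacgttgcgAACGTGcgcccggtgcct
Eif4ebp2, the member called in RNA, had no match in this window, and Rheb, which had the E-box, was not called.

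By the correlation of log2(RPKM + 0.1) over the 24 libraries of an assay, the genes most like Eif4ebp2 in RNA-seq included Tgfb1 (r = 0.92), Gnas (0.91), Prr12 (0.90) and Gnai2 (0.90), whose fitted peaks lay between ZT 6.12 and 7.001 h. In RPF-seq they were Tbxas1 (0.87), Fbxl20 (0.83), Trafd1 (0.83), Twistnb (0.83) and Rab24 (0.82). For Ddit4 footprints they included Atg4a (0.80), a protease of autophagy, the cap-binding factor Eif4e (0.78), Helb (0.78) and Tra2a (0.78), with peaks between ZT 16.5 and 18.2 h. Of the genes named here, Helb (adjusted p = 0.113, limma) and Twistnb (adjusted p = 0.0952, limma) did not pass the FDR in the assay concerned. The correlations were computed without the GC correction, and Eif4ebp2 RNA itself correlated with the GC slope (r = 0.67). Whether a shared dependence on GC adds to them was not tested.

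The other genes of the pathway were taken from lists of complex partners, amino acid sensing, growth and energy inputs, and effectors, of which 59 genes were tested. Of these, 7 had a called change of RNA (11.9%), 7 of footprints (11.9%) and 12 of TE (20.3%), beside 10.2%, 7.58% and 17.1% of all genes. The median folds were 1.18, 1.18 and 1.20. With the GC correction, 7, 7 and 5 of the same genes were called. The calls in TE that were lost included those of Prr5, Lamtor2, Fnip1, Prkaa1, Prkab1 and Tfeb.

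**Figure D5:**
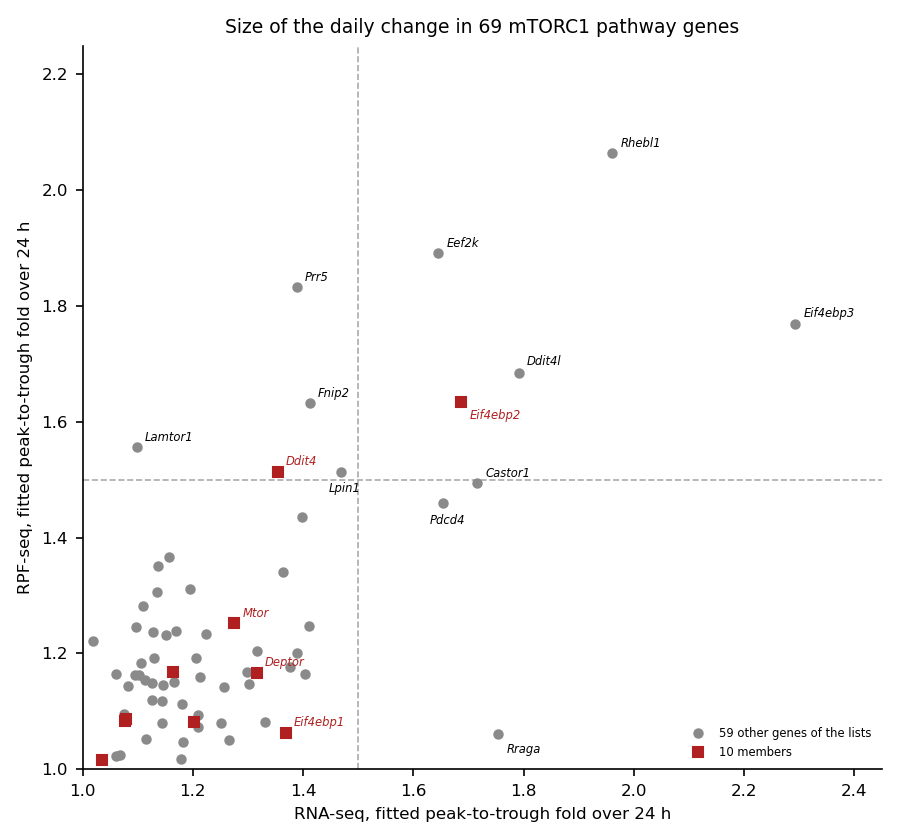
Fitted peak-to-trough fold over 24 h in RNA-seq (x axis) and RPF-seq (y axis) for 10 members (red squares) and 59 other pathway genes (grey dots); dashed lines mark 1.5-fold, and the genes called in either assay, with 3 further members, are named. Most genes lie under 1.5-fold in both assays, and Rhebl1 (1.96 and 2.06) is highest in RPF-seq.

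Paralogs of Rheb, Ddit4 and the eIF4E-binding proteins were called as well. Rhebl1, the paralog of Rheb, changed 1.96-fold in RNA-seq (peak at ZT 3.96 h, adjusted p = 0.000629, limma) and 2.06-fold in RPF-seq (peak at ZT 3.02 h, adjusted p = 0.0141, limma), at a mean of only 4.30 and 3.73 RPKM. Ddit4l, the paralog of Ddit4, changed 1.79-fold in RNA-seq (peak at ZT 0.254 h, adjusted p = 6.79e-05, limma) and 1.68-fold in RPF-seq (peak at ZT 22.6 h, adjusted p = 0.00339, limma). Eif4ebp3, the remaining eIF4E-binding protein, changed 2.29-fold in RNA-seq (peak at ZT 11.8 h, adjusted p = 0.00165, limma) at a mean of 3.13 RPKM, and its footprints, with 1.77-fold, did not pass (adjusted p = 0.0654, limma).

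Among 12 effectors, RNA was called for 3 (25.0%, beside 10.2% of all genes), footprints for 2 (16.7%, beside 7.58%) and TE for 2 (16.7%, beside 17.1%). The RNA count varied, with 4 called without replicate 1 (33.3%, beside 6.09%) and 1 without replicate 2 (8.33%, beside 12.1%). Footprints were called for 1 without replicate 1 (8.33%, beside 3.12%) and for 2 without replicate 2 (16.7%, beside 7.19%). Eef2k encodes the kinase that inhibits elongation factor eEF2 and is itself restrained by S6 kinase. It changed 1.64-fold in RNA-seq and 1.89-fold in RPF-seq, with peaks at ZT 8.93 and 10.2 h (adjusted p = 0.000133 and 0.00108, limma). Its mean was only 2.62 RPKM in RNA-seq and 1.81 RPKM in RPF-seq. Pdcd4, an inhibitor of the helicase eIF4A, changed 1.65-fold in RNA-seq with a peak at ZT 6.96 h (adjusted p = 0.000169, limma), and its footprints 1.46-fold (adjusted p = 2.56e-06, limma). Lpin1, a phosphatase of lipid synthesis, was called in RPF-seq (1.51-fold, peak at ZT 11.4 h, adjusted p = 0.000119, limma). Its RNA changed alike but stayed under the fold cutoff (1.47-fold, peak at ZT 11.7 h, adjusted p = 1.82e-05, limma). Eif4b, an initiation factor phosphorylated by S6 kinase, was called in TE (1.43-fold, peak at ZT 17.9 h, adjusted p = 0.0263, limma), as was the lysosomal factor Tfeb (1.29-fold, adjusted p = 0.0389, limma). Rps6, the ribosomal protein that gave S6 kinase its name, was the most abundant of the list with 610 RPKM ± 47.2 (SD, n = 24) in RNA-seq and was not called.

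Among 26 genes of amino acid sensing, RNA was called for 2 (7.69%, beside 10.2% of all genes), footprints for 2 (7.69%, beside 7.58%) and TE for 6 (23.1%, beside 17.1%). Rraga, the Rag GTPase subunit RagA, changed 1.75-fold in RNA-seq with a peak at ZT 4.57 h (adjusted p = 5.61e-06, limma), while its footprints gave 1.06-fold (adjusted p = 0.524, limma) and its TE 1.72-fold with a peak at ZT 17.0 h (adjusted p = 0.00291, limma). Lamtor1, which anchors the Ragulator to the lysosome, showed the converse, with 1.10-fold in RNA-seq (adjusted p = 0.53, limma), 1.56-fold in RPF-seq (adjusted p = 0.000452, limma) and 1.71-fold in TE (adjusted p = 0.00641, limma), both with a peak at ZT 2.1 h. Castor1, an arginine sensor, changed 1.72-fold in RNA-seq with a peak at ZT 11.7 h (adjusted p = 4.02e-05, limma). Its footprints stayed just under the fold cutoff (1.49-fold, peak at ZT 11.6 h, adjusted p = 0.00212, limma). Fnip2, a partner of folliculin, changed 1.63-fold in RPF-seq (adjusted p = 0.000998, limma), and its RNA 1.41-fold, under the cutoff (adjusted p = 0.000677, limma). TE was also called for Castor2 (1.44-fold, adjusted p = 0.0188, limma), Lamtor2 (1.44-fold) and Fnip1 (1.26-fold), among others. Sec13, a GATOR2 and coat protein subunit, had the highest RNA level of the list with 96.1 RPKM ± 9.20 (SD, n = 24) and was not called.

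Of 7 complex partners, Prr5, a subunit of mTORC2, was the only gene called (14.3% in RPF-seq and in TE, beside 7.58% and 17.1% of all genes). It changed 1.83-fold in RPF-seq (peak at ZT 20.9 h, adjusted p = 1.46e-05, limma) and 1.36-fold in TE (adjusted p = 0.0343, limma). Its RNA passed the FDR but stayed under the fold cutoff (1.39-fold, peak at ZT 22.1 h, adjusted p = 0.0148, limma). With the GC correction, Prr5 RNA was called (1.59-fold, adjusted p = 0.000293, limma) and its TE was not (adjusted p = 0.172, limma). Mapkap1, another mTORC2 subunit, had the highest RNA level with 53.9 RPKM ± 2.59 (SD, n = 24) and a fold of 1.08. Of 14 growth and energy inputs, Rhebl1 and Ddit4l were called in both assays (14.3% in each, beside 10.2% and 7.58% of all genes). In TE, Akt1 (1.42-fold), Prkaa1 (1.21-fold) and Prkab1 (1.31-fold) were called (21.4%, beside 17.1%). Prkaa2, the AMPK catalytic subunit with the highest RNA level of this list (95.2 RPKM ± 8.78, SD, n = 24), changed 1.20-fold. The LKB1 gene Stk11 had the smallest adjusted p of the list (1.41-fold in RNA-seq, adjusted p = 3.32e-06, limma), but stayed under the cutoff.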

How the data were processed

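Values were coding-sequence RPKM deposited per library. Per the labels and methods, the authors trimmed reads with Cutadapt, aligned them with Bowtie2 2.2.1 and TopHat2 2.0.11 to GRCm38.p2, estimated transcripts with Cufflinks 2.2.1, and normalised counts by upper quantile with edgeR before computing RPKM. Recovered reads were whole within 0.05 for 99.939% (RNA-seq) and 99.977% (RPF-seq) of values. Depth differed between libraries and was on the median lower from ZT12 to ZT22 than from ZT00 to ZT10. Relative to the median library, it was 0.867 against 1.098 in RNA-seq and 0.781 against 1.083 in RPF-seq. Poisson error at the median count was 1.0% for Mtor and 12.6% for Eif4ebp1 in RNA-seq.

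log2(RPKM + 0.1) of 11863 genes was fitted with limma 3.58.1 (R 4.3.3, eBayes with trend) with 24-h cosine and sine terms. For the TE level, log2 TE was taken against the median gene of each pool. The intercept of a fit with the same terms was then tested. The p-values were adjusted by Benjamini-Hochberg over all genes. The values are RPKM, so no count model was the main test. Scripts were tested on simulated data. Level order used sign-flip permutations (numpy 2.4.6). Copies were searched with blastn 2.17.0. Alternatives covered the pseudocount, filters, normalisation, model, block and left-out pools; GC and length corrections, voom on recovered reads and the joint omission of 2 pools were added after seeing the data. Named are the members, every list gene called, the most abundant gene and that with the smallest adjusted p of each list, and the 5 genes most like a called member. Some genes that this rule names are not reported here. Members and lists were chosen with earlier results of these data known.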

Additional observations from a re-analysis of the deposited data

How the results depend on the processing

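Of the members' calls, that of Eif4ebp2 RNA was made under all 40 alternatives and that of Ddit4 TE under 35 of 38. The call of Eif4ebp2 footprints was kept under 38 of 40, of Ddit4 footprints under 29 of 40 and of Rps6kb1 TE under 30 of 38. The losses are given beside each result, and no called direction was reversed.

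Genes called over the whole table numbered 1210 for RNA, 899 for footprints and 2028 for TE. A pseudocount of 1 lowered the first to 781 and the second to 590, with 1 member called in RPF-seq. With the timepoints as separate levels, 2291 genes were called for RNA, 1132 for footprints and 101 for TE. Among these were 2 members for RNA, 1 for footprints and 0 for TE. The 12-h harmonic gave 2 members among 1752 genes called in RNA-seq and 1 among 1357 in TE. The GC correction gave 1185 genes in TE, 1170 with coding length added and 1193 with the replicate block, each with 1 member, and 6 of the 59 other pathway genes. For the TE level, no minimum on RPKM gave 2 members above the median gene.

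Leaving out pools gave 722 to 1434 genes for RNA, 370 to 956 for footprints and 0 to 2488 for TE. The lowest values came from the fits without replicate 1, which hold 12 pools. The highest in RNA-seq and TE came from leaving out the ZT10 and ZT12 pools of replicate 2 together. Members called ran from 1 to 2 for RNA, 0 to 2 for footprints and 0 to 2 for TE. For the TE level and the other pathway genes, only a whole replicate was left out. These fits gave 1 to 2 members above the median TE. They called 3 to 5 other pathway genes in RPF-seq and 0 in TE, where 0 and 2 of all genes were called. In TE, leaving out ZT20 replicate 2 gave 1 member among 1369 genes called.

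On average, the replicate number did not pair the samples (mean correlation of same-number deviations 0.03 in RNA-seq and 0.02 in RPF-seq over 66 pairs of timepoints). Single pairs of timepoints reached 0.48 in RNA-seq and 0.19 in RPF-seq, and 13 and 10 of the 66 were over 0.1. The fit with the replicate number as a block called 2 members in TE and 2 in RPF-seq, beside 18.2% and 7.54% of all genes. It changed no member's call. Voom on the recovered reads kept both assays' member calls. Depth limits Eif4ebp1 and Ddit4 most, with medians of 62.5 and 178.5 RNA-seq reads. The causes of the changes between settings were not tested.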
